A study of Mus musculus with 8 samples.

Results

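The FGF genes of the early kidney are described here by 10 members, the ligand genes Fgf7, Fgf8, Fgf9, Fgf10 and Fgf20 and the receptor genes Fgfr1, Fgfr2, Fgfr3, Fgfr4 and Fgfrl1. They were chosen by name, and each was read from the probe set with exactly 1 gene symbol and the highest mean over the 8 arrays. All 10 were found among the 19356 genes measured, and each had 1 such probe set. The study compared caudal urogenital ridges dissected from E10.75 mouse embryos, with 4 Sox11 knockout replicates (Sox11-/-) and 4 wild type replicates. Both genotypes came from mice on a mixed genetic background and had no treatment. The sources used here state neither how the allele was made nor how many embryos went into a replicate.

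FGFs are secreted proteins that bind receptor tyrosine kinases together with heparan sulphate, a sugar chain on cell surface proteins, and drive the RAS/ERK kinase cascade in the receiving cell. In the mouse kidney, FGF9 and FGF20 keep nephron progenitors from differentiating early, FGF8 is needed for nephrons to form, and FGF7 and FGF10 from the surrounding mesenchyme act on FGFR2 of the ureteric bud. FGFR1 and FGFR2 act together in the metanephric mesenchyme, and FGFRL1 binds FGFs but has no kinase domain.

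None of the 10 members passed the test between the genotypes. The differences, given throughout on the log2 scale as Sox11 knockout minus wild type, ran from -0.23 for Fgfrl1 to 0.20 for Fgf7, and 8 of the 10 were below 0. Limma called 0 members at an adjusted p under 0.05, against 1.44% of all genes, of which 1.08% were lower and 0.362% higher in the knockout. At an unadjusted p under 0.05 there were 2 members, Fgf7 and Fgfrl1, against 16.7% of all genes. No member's 95% interval reached beyond a 1.43-fold difference in either direction, and the widest interval was that of Fgf9.

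Each value is the authors' log2 RMA signal, which carries no count of molecules and no call of whether a gene was detected. Arrays correlated between 0.987 and 0.995 over all genes (Pearson's r, across genes that are no independent replicates), and the number of arrays limits the precision. Sox11, the targeted gene, gave 9.24, 9.13, 8.93 and 9.12 in the knockout, against 11.76, 11.81, 11.72 and 11.86 in wild type, so the targeted gene was lower on every array labelled knockout. The Y-linked genes gave signal on knockout replicates 3 and 4, against wild type replicate 1, so the sexes were spread unevenly. All defining markers fixed for the nephric duct and the metanephric mesenchyme that were measured (9 of 10 and 10 of 10) gave values, but with no detection call their presence has no test. Their signals, summed on the linear scale, did not overlap between the genotypes. The duct sum was 7812 to 9177 in the knockout and 6103 to 7712 in wild type, while the mesenchyme sum was 13463 to 14143 in the knockout and 14563 to 15566 in wild type. Such a sum weighs the markers with the highest signal most. The differences of single duct markers ran from -0.02 to 0.63, and 1 of 9 passed limma's threshold. Those of single mesenchyme markers ran from -0.48 to 0.19, with 4 of 10 above 0, and 1 of 10 passed. In such bulk tissue, fewer cells of a type and less RNA per cell cannot be told apart, and the part of these sums in the values below was not tested.

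**Figure D1:**
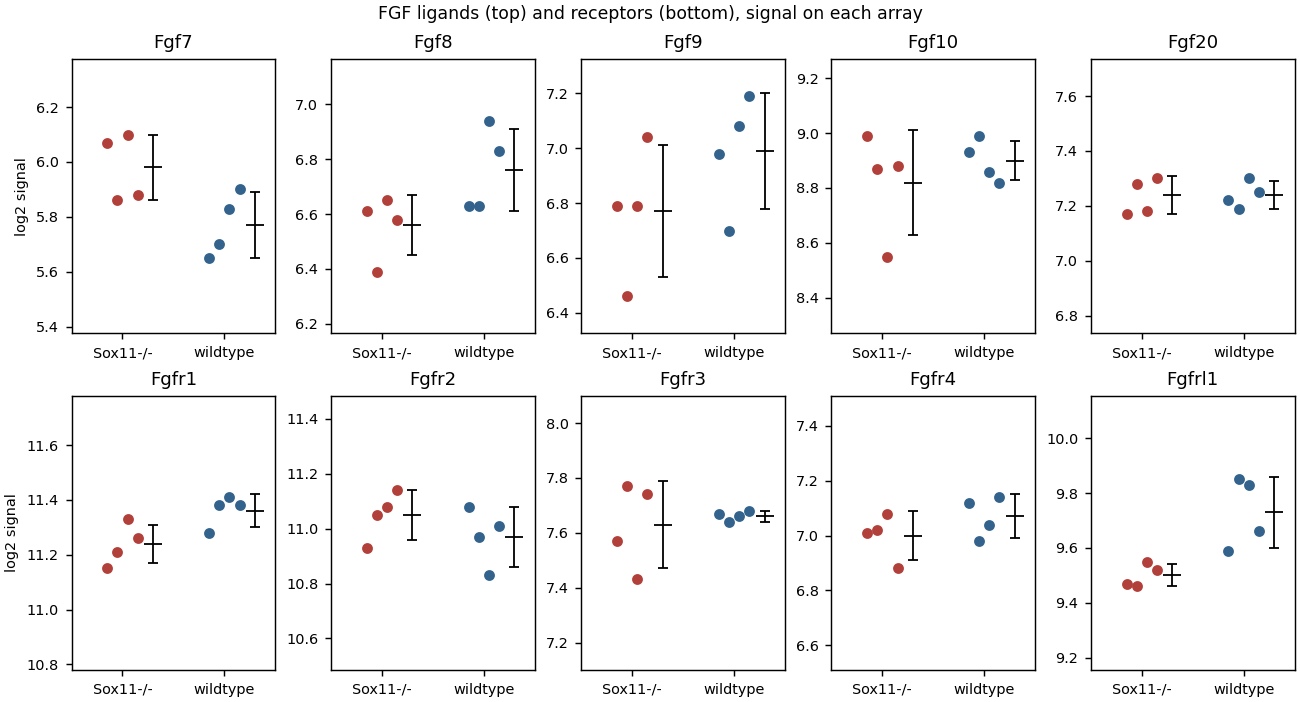
Log2 signal of the 5 ligand genes (top row) and 5 receptor genes (bottom row) on each array, Sox11-/- in red and wildtype in blue, with the mean and SD of 4 arrays beside the points; every panel spans the same height on its log2 axis. Only the Fgfrl1 points of the genotypes do not overlap, with the knockout at 9.46 to 9.55 and the wild type at 9.59 to 9.85.

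Among the mesenchymal ligands, Fgf7 was the member above 0 with the lowest p. Fgf7 gave 6.07, 5.86, 6.10 and 5.88 in the knockout, against 5.65, 5.70, 5.83 and 5.90 in wild type. Knockout replicates 1 and 3 lay above every wild type array, and the other knockout arrays lay among the wild type values. The difference was 0.20 (SE 0.08, 95% interval 0.02 to 0.39), or 1.15-fold, and the limma adjusted p was 0.255. Fgf7 was also the 1 member below the 25th percentile of level over all genes, where RMA signals understate differences. The 3 genes whose signal over the 8 arrays was most like that of Fgf7 were Tenm1 (Pearson's r = 0.983), Nrk (0.967) and Mal (0.964), as a description over arrays that also differ in genotype.

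Fgf10, which is made in mesenchyme and signals to epithelial buds, gave 8.99, 8.87, 8.55 and 8.88 in the knockout, against 8.93, 8.99, 8.86 and 8.82 in wild type. Apart from knockout replicate 3, the low array, the values of both genotypes interleaved. Its difference was -0.08 (SE 0.09, 95% interval -0.29 to 0.13, limma adjusted p = 0.707), and it was 0.01 without that replicate. Fgf10 is also a gene of the limb bud. The 6 hindlimb bud markers had summed linear signals of 3968 to 6203 in the knockout and 3642 to 5016 in wild type. They varied unequally between arrays. The SD of Msx1 was 0.08 in the knockout and 0.09 in wild type, and that of Tbx4, the most variable, 0.90 and 0.81. Tbx4 gave 8.39, 9.16, 8.30 and 6.99 in the knockout, against 6.87, 8.43, 8.32 and 7.08 in wild type. Replicates of 1 genotype thus differed more in Tbx4 than in any FGF member. The part of limb tissue in the Fgf10 values was not tested.

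Fgf8, needed in mouse for nephron formation, gave 6.61, 6.39, 6.65 and 6.58 in the knockout, against 6.63, 6.63, 6.94 and 6.83 in wild type. The groups overlapped through knockout replicate 3 alone, the other 3 knockout arrays lying below the lowest wild type array. Its difference was -0.20 (SE 0.09, 95% interval -0.40 to 0.00), and the limma adjusted p was 0.308. Fgf8 is made in the tail bud as well. The 6 measured tail bud markers had summed linear signals of 370 to 408 in the knockout and 365 to 379 in wild type. Limma called 0 of 6, beside 1.44% of all genes. Most of these markers lay below the 25th percentile of level over all genes, so their sum is mainly low signal. The part of tail bud tissue in the Fgf8 values was not tested.

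The paralogs Fgf9 and Fgf20, which maintain nephron progenitors in mouse, gave a wide and a narrow spread. Fgf9 gave 6.79, 6.46, 6.79 and 7.04 in the knockout, against 6.98, 6.70, 7.08 and 7.19 in wild type. Both genotypes ranged widely and overlapped, with replicate 2 lowest and replicate 4 highest in each. Fgf9 had the largest SD of any member, 0.24 in the knockout and 0.21 in wild type (n = 4 each), against a median SD of 0.11 over all genes. The Fgf9 difference was -0.22 (SE 0.13, 95% interval -0.51 to 0.07, limma adjusted p = 0.429). With the replicate number as a block it was -0.22 with a limma adjusted p of 0.190. Fgf20 gave 7.17, 7.28, 7.18 and 7.30 in the knockout, against 7.22, 7.19, 7.30 and 7.25 in wild type. These 8 values lay within a narrow band, with means of 7.24 ± 0.07 in the knockout and 7.24 ± 0.05 in wild type (SD, n = 4 each), and the 95% interval of the difference was -0.14 to 0.14 (limma adjusted p = 0.986).

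Fgfrl1 was the member with the lowest p and the only one whose genotypes did not overlap. This receptor gene, which is needed for kidney formation in mouse, gave 9.47, 9.46, 9.55 and 9.52 in the knockout, against 9.59, 9.85, 9.83 and 9.66 in wild type. The knockout arrays lay close together below all wild type arrays, and wild type replicate 1, the one with Y-linked signal, was the lowest of its genotype. Means were 9.50 ± 0.04 in the knockout and 9.73 ± 0.13 in wild type (SD, n = 4 each). The difference was -0.23 (SE 0.07, 95% interval -0.40 to -0.06), a level 1.17-fold lower in the knockout, and it missed the threshold with a limma adjusted p of 0.165. On the arrays without Y-linked signal it was -0.31, with a limma adjusted p of 0.402 over 2 knockout and 3 wild type arrays. Groups without overlap were found for 10.5% of all genes, 6.47% with the knockout below and 4.04% with it above, so 1 of 10 members is near the background. The genes most like Fgfrl1 over the 8 arrays were Phf2 (r = 0.985), Lrrc75a (0.983) and Timm29 (0.981), again as a description.

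Of the kinase receptors, Fgfr1 came nearest to the threshold. Fgfr1 gave 11.15, 11.21, 11.33 and 11.26 in the knockout, against 11.28, 11.38, 11.41 and 11.38 in wild type. Only knockout replicate 3 reached into the wild type range, between wild type replicate 1 and the others. The difference was -0.13 (SE 0.06, 95% interval -0.27 to 0.02, limma adjusted p = 0.360). Fgfr2, which receives FGF7 and FGF10 on the duct and other FGFs in the mesenchyme through a different splice form, gave 10.93, 11.05, 11.08 and 11.14 in the knockout, against 11.08, 10.97, 10.83 and 11.01 in wild type. It overlapped widely, with a difference of 0.08 (SE 0.08, 95% interval -0.09 to 0.25, limma adjusted p = 0.647). One value per gene does not part the splice forms of FGFR1, FGFR2 or FGFR3.

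Fgfr3 and Fgfr4 encode the other kinase receptors of the family. Fgfr3 gave 7.57, 7.77, 7.43 and 7.74 in the knockout, against 7.67, 7.64, 7.66 and 7.68 in wild type. The 4 wild type values fell inside the knockout range, and the SD was 0.16 in the knockout and 0.02 in wild type. Fgfr4 gave 7.01, 7.02, 7.08 and 6.88 in the knockout, against 7.12, 6.98, 7.04 and 7.14 in wild type. Differences were -0.04 for Fgfr3 (95% interval -0.22 to 0.15) and -0.07 for Fgfr4 (95% interval -0.23 to 0.08), with limma adjusted p-values of 0.857 and 0.622.

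**Figure D2:**
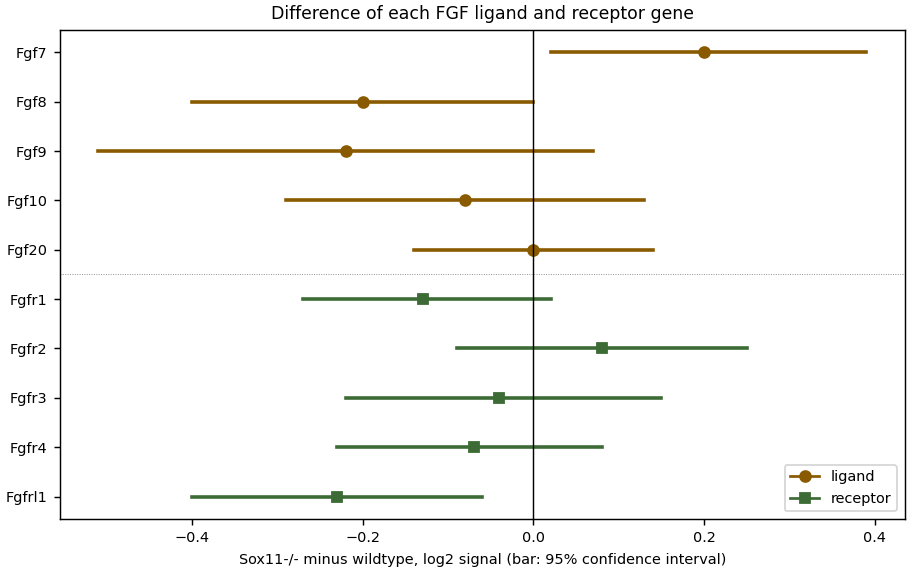
Difference of each member, Sox11-/- minus wildtype on the log2 scale, with its 95% confidence interval from limma (circles for ligands, squares for receptors). The unadjusted intervals of Fgf7 (0.02 to 0.39) and Fgfrl1 (-0.40 to -0.06) leave out 0, and neither gene passed after adjustment over all genes.

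Set side by side, ligands and receptors had nearly the same median difference, -0.078 for the 5 ligands and -0.074 for the 5 receptors, beside a median of 0.0 over all genes. That near-equality varied with the arrays used. Without knockout replicate 3 the ligand median was 0.01, the receptor median -0.10 and their difference 0.11. Without any other 1 array the difference was -0.06 to 0.05. One ligand (Fgf7) and 1 receptor (Fgfr2) lay above 0. The mean deviation of the 5 ligands from their wild type means was 0.0, -0.16, -0.08 and 0.01 on knockout replicates 1 to 4, against -0.05, -0.09, 0.07 and 0.07 on the wild type arrays, so the genotypes overlapped. For the 5 receptors it was -0.14, -0.06, -0.07 and -0.05 on the knockout arrays, against -0.01, 0.0, -0.01 and 0.02 on the wild type arrays, and the genotypes did not overlap. This is a description of 10 chosen genes and carries no test. Of single genes, 6.47% had all knockout arrays below all wild type arrays, and no such share was taken for means of 5 genes. The receptor values rest mainly on Fgfrl1 and Fgfr1, the receptors with the largest differences.

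Partners of the receptors held 1 gene that did pass. Of the 16 measured genes for co-receptors and FGF-binding proteins, which include glypicans and syndecans that carry heparan sulphate, Gpc2 fell and 15 did not pass, against 1.08% of all genes that fell. Gpc2, a glypican known from growing neurons, gave 9.20, 9.21, 9.23 and 9.00 in the knockout, against 9.90, 9.88, 9.87 and 9.89 in wild type. The genotypes were far apart, and the 4 wild type arrays nearly coincided. Gpc2 fell by 0.73 on the log2 scale (SE 0.07, 95% interval -0.88 to -0.58), a level 1.66-fold lower (limma adjusted p = 0.000776). The 8 neuron markers had summed linear signals of 1084 to 1298 in the knockout and 1387 to 1910 in wild type, without overlap. Dcx was the 1 neuron marker that passed, lower in the knockout. Of the 8, 6 lay below 0 and 2 above. The somite marker sums did not overlap either, at 1544 to 1947 in the knockout and 2294 to 2661 in wild type. Of those 8 markers, Meox2 and Uncx fell. Differences ran from -0.94 to 0.16 with a median of -0.06. The 3 markers above 0 lay below the median level over all genes. The part of neurons and somites in the Gpc2 result, or in the FGF/ERK targets below, was not tested. On the 5 arrays without Y-linked signal Gpc2 was at -0.68 and missed the threshold, with a limma adjusted p of 0.0549.

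The bases before the start sites of the partner gene that passed and of the ligand and receptor with the lowest p are printed, as context for a knockout of a SOX factor. They come from RefSeq's GRCm38.p6, in which 7 of the 10 members had a promoter entry. Each runs 250 bases up to the start site, 5′ to 3′ on the gene's strand, with the SOX core words ACAAAG and ACAATG in capitals where they occur on either strand. They are Gpc2 at chr5:138279938-138280187 on the minus strand, Fgf7 at chr2:126034408-126034657 on the plus strand and Fgfrl1 at chr5:108693979-108694228 on the plus strand.
Gpc2: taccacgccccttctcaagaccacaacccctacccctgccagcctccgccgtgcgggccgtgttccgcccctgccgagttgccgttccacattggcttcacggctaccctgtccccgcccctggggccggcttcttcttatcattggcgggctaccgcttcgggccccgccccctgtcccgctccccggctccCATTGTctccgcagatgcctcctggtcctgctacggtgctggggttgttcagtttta
Fgf7: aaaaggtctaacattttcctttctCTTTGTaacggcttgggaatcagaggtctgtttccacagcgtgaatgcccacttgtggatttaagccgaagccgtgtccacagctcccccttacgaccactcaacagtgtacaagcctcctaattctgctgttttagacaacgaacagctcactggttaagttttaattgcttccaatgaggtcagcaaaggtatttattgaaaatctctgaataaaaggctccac
Fgfrl1: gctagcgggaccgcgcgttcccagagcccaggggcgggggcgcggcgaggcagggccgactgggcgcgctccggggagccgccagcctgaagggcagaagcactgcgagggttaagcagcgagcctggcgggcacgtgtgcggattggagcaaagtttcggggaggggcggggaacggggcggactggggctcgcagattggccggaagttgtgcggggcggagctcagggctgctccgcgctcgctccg
Gpc2 held 1 word, ACAATG on the opposite strand, at 57 to 52 bases before the start. Fgf7 held 1, ACAAAG on the opposite strand, at 226 to 221 bases before it, and the Fgfrl1 window held 0. Of the 8 windows of members 1 held a word, against 25.2% of all 32851 promoter windows of this length. The words do not overlap one another in these windows, and a match describes the letters alone.

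Genes that build and edit heparan sulphate had 0 of 14 past limma's threshold, beside 1.44% of all genes. At an unadjusted p under 0.05, 1 was lower and 2 were higher, beside 9.38% and 7.29% of all genes. Sulf1, a secreted enzyme that trims sulphate from the chains and in other tissues weakens FGF signals, gave 10.99, 10.49, 10.80 and 10.97 in the knockout, against 10.29, 10.41, 10.46 and 10.31 in wild type. All knockout arrays lay above all wild type arrays, knockout replicate 2 by the least. Its difference was 0.44 (SE 0.11, limma adjusted p = 0.0807), and without knockout replicate 2 it was 0.55 and passed, with a limma adjusted p of 0.0155. No gene of the list passed in any other alternative. Hs3st3b1, a sulphotransferase, was at 0.43 (SE 0.11, limma adjusted p = 0.0897), with the knockout arrays at 7.63 to 7.97 and the wild type arrays at 7.02 to 7.45. Hs6st1, which adds sulphate at another position, was at -0.25 (SE 0.08, limma adjusted p = 0.151), with the knockout at 8.87 to 9.05 and wild type at 9.02 to 9.28. Sulf1 and Hs3st3b1 were the 2 genes of the list with all knockout arrays above all wild type arrays, which held for 4.04% of all genes. The list had a median of 0.04.

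**Figure D3:**
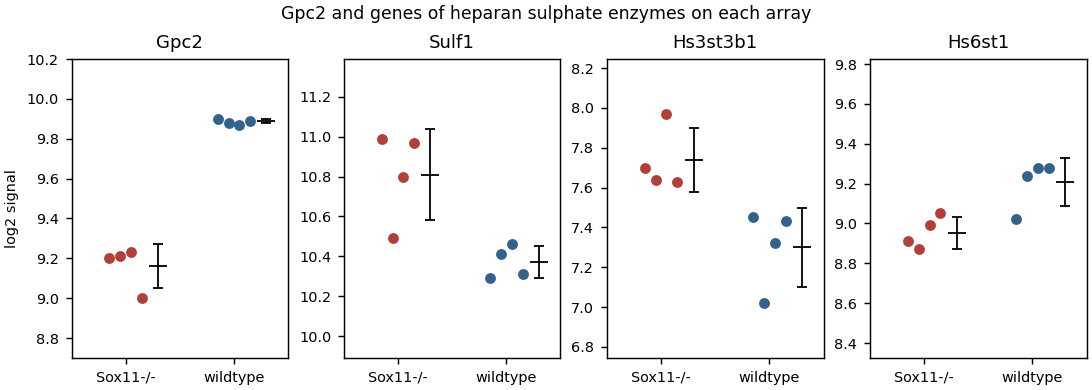
Log2 signal on each array of Gpc2 and of the 3 heparan sulphate enzyme genes with the lowest p, Sox11-/- in red and wildtype in blue, with mean and SD of 4 arrays; every panel spans the same height on its log2 axis. Gpc2 lies at 9.00 to 9.23 in the knockout and 9.87 to 9.90 in wild type, while the genotypes touch for Hs6st1.

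Other FGF family genes did not pass either. Of the 16 measured, 11 lay above 0, with a median of 0.11, and limma called 0 of 16, beside 1.44% of all genes. None of them lay above the median level over all genes. Some, Fgf21 among them, lay below the 25th percentile, where RMA signals understate differences. At an unadjusted p under 0.05, 2 were higher and 0 lower, beside 7.29% and 9.38% of all genes. Fgf12, which encodes an FGF-related protein that stays inside the cell, was at 0.30 (SE 0.10, limma adjusted p = 0.185). Fgf21, a metabolic hormone, was at 0.17 (SE 0.07, limma adjusted p = 0.282), and Fgf4, an early embryo and limb bud ligand, at 0.23 (SE 0.10, limma adjusted p = 0.304). Of these, Fgf21 alone had groups without overlap, 6.18 to 6.39 in the knockout and 6.15 at most in wild type. All knockout arrays lay above all wild type arrays for 4.04% of all genes.

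Inside the cell, the receptors act through adaptors, RAS and the ERK cascade, and 0 of the 16 measured genes of this chain passed limma's threshold. At an unadjusted p under 0.05, 3 were lower and 0 higher, beside 9.38% and 7.29% of all genes. They were Plcg1, a phospholipase bound by active receptors, at -0.18 (SE 0.06, limma adjusted p = 0.190), the adaptor Grb2 at -0.23 (SE 0.08, limma adjusted p = 0.219) and Nras at -0.15 (SE 0.06, limma adjusted p = 0.239). All 3 had their 4 knockout arrays below the lowest wild type array, which held for 6.47% of all genes. The other 8 genes of the list were not used here. The median of the list was -0.06.

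Targets and feedback inhibitors of FGF and ERK signals had a median of -0.18, beside 0.0 over all genes, with 14 of 15 below 0. Limma called Etv5 and Dusp4 lower and 0 higher, against 1.08% and 0.362% of all genes, and 13 did not pass. At an unadjusted p under 0.05, 7 were lower and 0 higher, beside 9.38% and 7.29% of all genes. For 5 of the 15, all knockout arrays lay below all wild type arrays, which held for 6.47% of all genes. Many genes of the list are also induced by GDNF through RET, so their levels do not read FGF input alone. Etv5, a transcription factor of the duct tip, gave 8.68, 8.57, 8.60 and 8.75 in the knockout, against 8.94, 8.96, 9.19 and 9.12 in wild type (limma adjusted p = 0.0368). Dusp4, an ERK phosphatase, gave 7.32, 7.04, 7.39 and 7.08 in the knockout, against 7.61, 7.96, 8.18 and 8.54 in wild type (limma adjusted p = 0.0379). Both calls were lost with median centring, a further quantile normalization, no moderation, the replicate block (limma adjusted p = 0.0764 and 0.0741), the Y-linked covariate and on the arrays without Y-linked signal. They were lost too without any 1 knockout array or without wild type replicate 3, with limma adjusted p-values reaching 0.101 and 0.121, Etv5 also without wild type replicates 2 and 4 and with its probe sets averaged, and Dusp4 also without wild type replicate 2. Without wild type replicate 2, 1 other gene of the list was called lower. Among 12 early kidney genes listed beside the pathway, limma called Six2 lower and Ret higher (limma adjusted p = 0.0437 and 0.0220), beside 1.08% and 0.362% of all genes. Six2 lost its call with median centring, a further quantile normalization, no moderation, the Y-linked covariate, on the arrays without Y-linked signal and without each array but wild type replicate 1. Ret lost its call without moderation, on the arrays without Y-linked signal and without knockout replicates 1, 2 and 3 and wild type replicates 2 and 3.

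**Figure D4:**
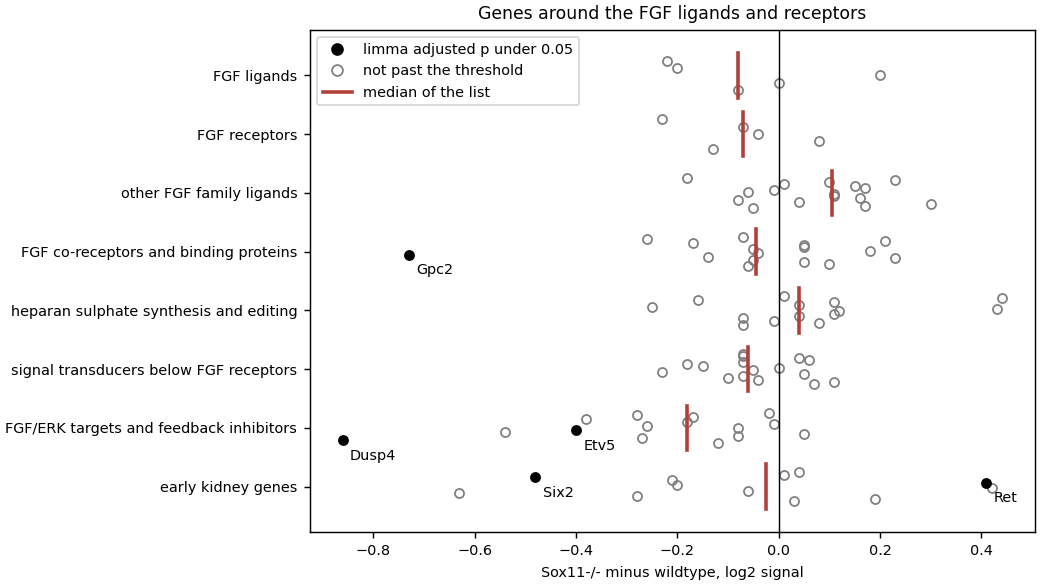
Difference of every measured gene of 8 lists, Sox11-/- minus wildtype on the log2 scale, with each list's median as a red line and genes at a limma adjusted p under 0.05 filled and named. The ligands and receptors hold no filled point; Gpc2, Etv5, Dusp4, Six2 and Ret are the filled ones, at -0.73, -0.40, -0.86, -0.48 and 0.41.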

How the data were processed

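Gene expression was measured on 8 Affymetrix-labelled arrays, 4 of Sox11 knockout and 4 of wild type caudal urogenital ridges, grouped by the labels' titles. The authors deposited 1 log2 signal per probe set, made with RMA and Partek, per the submitters' processing notes. The sources used here state no settings or genome build. RMA brings the arrays to nearly 1 distribution, so a shift of all genes together cannot be seen.

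Of 27478 probe sets, 21103 had exactly 1 gene symbol in the platform annotation, updated through RefSeq's gene identifiers, and the highest by mean was kept for each of 19356 genes, with no filter on level. The test was that of limma 3.58.1 under R 4.3.3 (lmFit, eBayes, genotype as the only term, two-sided), with Benjamini-Hochberg adjustment over all genes and a threshold of 0.05. The labels' extract protocol calls the replicates independent. Same-numbered arrays deviated together at r = -0.165, 0.0897, -0.0397 and 0.0621, so the numbers were not taken to pair them. The script was tested on simulated data, where 18 of 199 calls were false. Changes as small as the members' differences were not simulated.

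The members and gene lists were chosen with earlier results of these data known. The text names Sox11, the 10 members, each gene of a list past the threshold or else its 3 with the lowest p, and the 3 genes most like the ligand and the receptor with the lowest p. Tbx4, Msx1, Dcx, Meox2 and Uncx were named after their values were seen. Alternatives were other scalings, level filters, probe set rules, moderation, array weights, the replicate block, Y-linked signal and leaving out arrays.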

Additional observations from a re-analysis of the deposited data

Results flagged for a closer look

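Among 50 groups of 4 arrays (25 genes in each genotype), 5 held 1 array far from the other 3 by Dixon's criterion, where chance gives about 1 in 20 groups. No member was among them. Gpc2 was at 9.00 on knockout replicate 4, against 9.20 to 9.23 on the other knockout arrays, and without that array its difference was -0.68 with a limma adjusted p of 0.00265. Fgf12 was at 6.74 on knockout replicate 2, against 7.02 to 7.06 on the others. Grb2 was at 8.50 on knockout replicate 4, against 8.60 to 8.61. Plcg1 was at 11.00 on knockout replicate 1, against 11.08 to 11.09. Hs6st1 was at 9.02 on wild type replicate 1, against 9.24 to 9.28 on the other wild type arrays.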

How the results depend on the processing

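The 10 members gave 194 values over 12 alternatives and 8 omissions of an array. None of these passed the threshold, the lowest limma adjusted p being 0.105 (Fgfrl1, genes above the median level), and 11 had the opposite sign, all from members near 0. Fgf20 was at 0.03 with median centring, 0.01 after a further quantile normalization, and -0.03 to 0.02 when 1 array was left out. Fgfr3 was at 0.00 after a further quantile normalization, 0.01 on the arrays without Y-linked signal, an alternative chosen after seeing the data, and -0.08 to 0.03 with 1 array left out. Fgf10 was at 0.04 on those arrays, and -0.13 to 0.01 with 1 left out. The ligand median was -0.13 to 0.01 with 1 array left out, the receptor median -0.10 to -0.05, and their difference -0.06 to 0.11. The receptor median was -0.04 both with median centring and on the arrays without Y-linked signal. Filters on level leave out Fgf7 at the 25th percentile and Fgf7, Fgf8, Fgf9, Fgf20 and Fgfr4 at the median, so these have no value there.

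The 209 lower and 70 higher genes of all became 137 lower with median centring, 48 and 7 without moderation, 117 lower with the replicate block, 117 and 34 with Y-linked signal as covariate, and 24 and 6 on the arrays without Y-linked signal. With 1 array left out they were 88 to 192 and 17 to 55. The replicate block left 0 of the FGF/ERK targets called, with Etv5 at -0.40 (limma adjusted p = 0.0764), and changed no call of a member. Lower FGF/ERK targets numbered 0 instead of 2 with median centring, a further quantile normalization, no moderation, the replicate block, the Y-linked covariate and on the arrays without Y-linked signal, 1 with probe sets averaged per gene, and 0 to 2 with 1 array left out. Lower early kidney genes numbered 0 instead of 1 with median centring, a further quantile normalization, no moderation and the Y-linked covariate. They numbered 2 above the 25th percentile of level, with trended and robust moderation and with array weights, 3 above the median level, and 0 to 2 with 1 array left out. Higher ones numbered 2 above the 25th percentile, 0 without moderation and on the arrays without Y-linked signal, and 0 to 1 with 1 array left out. Called co-receptor genes numbered 0 on the arrays without Y-linked signal, and higher heparan sulphate genes 0 to 1 with 1 array left out. The cause of these changes was not tested. Fewer arrays are part of the construction where arrays were left out. With no detection calls, differences of genes with low signal may be understated by an amount these data do not give.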
